A study of Mus musculus with 10 samples.

Results

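The genes described here are 35 members of the TGF-beta, activin and BMP signalling pathways, taken from a fixed list of gene symbols. The list was chosen with earlier results of these data known. All 35 were rows of the gene table of 17404 genes, and they comprised 9 ligands and latency proteins, 10 receptors, 6 SMADs, 7 inhibitors and 3 target genes. Expression was measured by bulk RNA-sequencing of long-term hematopoietic stem cells (LT-HSCs), gated as Lin- c-Kit+ Sca1+ CD150+ CD48-, from mouse fetal livers at E14.5. Of the 10 libraries, 6 came from Tnfrsf11aCre; Spi1f/f embryos (KO) and 4 from Tnfrsf11a+/+; Spi1f/f embryos (WT), on a C57BL/6 background. Both groups carried the floxed Spi1 alleles, and only KO carried the Cre. The Cre is driven from the Tnfrsf11a locus, which macrophage precursors express, and Spi1 encodes PU.1, the transcription factor that macrophages need to differentiate, so the model was aimed at macrophages and not at the sorted stem cells. The comparison of KO with WT asks how the transcriptome of LT-HSCs differs when fetal liver macrophages are lacking. The sex of the embryos is not in the labels.

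Ligands of this superfamily bind pairs of type I and type II serine/threonine kinase receptors. TGF-beta and activin receptors phosphorylate SMAD2 and SMAD3, BMP receptors phosphorylate SMAD1, SMAD5 and SMAD9, and both kinds of receptor-activated SMAD enter the nucleus together with SMAD4. TGF-beta is secreted in a latent form, and in the bone marrow it is known for holding adult HSCs in quiescence, while BMP4 is known as a signal of the embryonic HSC niche.

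Depth ran from 5315435 to 30941726 gene counts per library in KO and from 7633446 to 18256010 in WT. Spi1 had a median of 65.6 CPM (counts scaled to a common library size) in KO, with a range of 9.10 to 101, and lay at 6.22, 33.8, 50.1 and 7.64 CPM in the WT libraries 15416, 15417, 15418 and 15420 (log2 fold change 1.31 ± 0.69 SE, edgeR adjusted p = 0.337). Tnfrsf11a did not exceed 5.80 CPM in any library. Since the deletion was directed at macrophages, neither gene is a check of the genotype in sorted LT-HSCs. The libraries contained LT-HSC transcripts and also a large number of transcripts of sinusoidal endothelium, and the summed level of 12 endothelial markers ran from 2316 to 11170 CPM in KO and from 1180 to 7276 CPM in WT. WT 15416 stood apart from the other WT libraries, with Stab2, a scavenger receptor of liver sinusoids, at 6.07 CPM against 827 to 1090 CPM. Not all of the 12 endothelial markers were low in WT 15416. Cldn5 (355 CPM) and Flt1 (277 CPM) lay within the range of the other WT libraries (311 to 419 and 154 to 400 CPM). The other endothelial markers were at their lowest in WT 15416. KO 15409 had the highest endothelial sum and the lowest sum of 12 LT-HSC markers within KO. Without WT 15416, 9 members were higher and 1 (Id2) lower in KO at an unadjusted p below 0.05, and 0 were called by edgeR in either direction. Of all 16593 genes in that fit, 1264 were higher and 1316 lower at that p, and 0 were called in either direction. In bulk samples, fewer cells of a type and less RNA per cell cannot be told apart.

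Between genes, levels were compared as TPM, which scales counts by transcript length as well as depth. The target genes led the order, with Id3 at 200.2 ± 109 TPM (SD, n = 10), Id2 at 129.6 ± 63.8 and Id1 at 59.7 ± 23.6 TPM. These ID proteins bind basic helix-loop-helix transcription factors and keep them off DNA. Lrrc32, which encodes the surface anchor of latent TGF-beta (GARP), followed at 33.8 ± 20.1 TPM and was the most abundant of the ligand and latency group. Tgif1, a nuclear corepressor, led the inhibitors at 26.4 ± 9.96 TPM, Smad4 led the SMADs at 19.6 ± 10.3 TPM, and Tgfbr3, the co-receptor betaglycan, led the receptors at 15.0 ± 7.26 TPM. The SDs were large, and for 28 of the 34 pairs of neighbours in this order the means differed by less than the smaller SD. The order of most neighbours therefore does not hold beyond the spread between libraries. By mean TPM, Id3 ranked above 96.4% of the genes tested, Lrrc32 above 80.0%, Smad3 (9.12 ± 4.43 TPM) above 56.5% and Smad9 above 7.75%.

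The ligands were lower in this order. Tgfb1 reached 5.83 ± 2.32 TPM, Inhba, which encodes the activin A subunit, 3.66 ± 2.66 TPM, Bmp4 3.27 ± 3.31 TPM and Tgfb2 1.65 ± 1.12 TPM. Tgfb3, the BMP type I receptor Bmpr1a and Smad9 had mean levels below 1 TPM (0.510, 0.301 and 0.0921 TPM). Bmpr1a had 0 counts in KO 15405, where a count of 0 allows up to 0.183 CPM. Of the BMP receptors, Acvr1 (11.3 ± 7.28 TPM), Acvrl1 (9.91 ± 5.17 TPM) and Bmpr2 (3.995 ± 2.25 TPM) were above Bmpr1a in mean level. TPM was used for levels only, because on this scale the median of 11964 genes was 0.42 higher in KO on the log2 scale, compared with -0.01 in CPM.

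Between KO and WT, counts were tested with edgeR's quasi-likelihood test over 16725 genes after TMM scaling, which makes CPM comparable between libraries, and a gene was called where its p, adjusted by Benjamini-Hochberg, was below 0.1. Of the 35 members, 1 was called higher in KO (Smad3), beside 1.32% of all genes tested, and 0 were called lower, beside 2.67% of all genes (3.99% in either direction). At an unadjusted p below 0.05, 10 members were higher in KO, beside 8.6% of all genes, and 0 were lower, beside 10.2%. All 6 KO libraries lay above all 4 WT libraries for 6 members, beside 2.88% of all genes, and no member had all KO libraries below WT, beside 3.48%. The median log2 fold change of the members was 0.32, against 0.06 over all genes, and 24 of 35 lay above 0, against 53.1% of all genes. The members had a median transcript length of 2506 bases, and the 10 with an unadjusted p below 0.05 one of 3637 bases, against 1863 bases over all genes. With an offset for transcript length the median of the members was 0.27 and that of all genes 0.09, and no gene was called in either direction, with 1385 genes higher and 1208 lower where the unadjusted p was below 0.05.

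**Figure D1:**
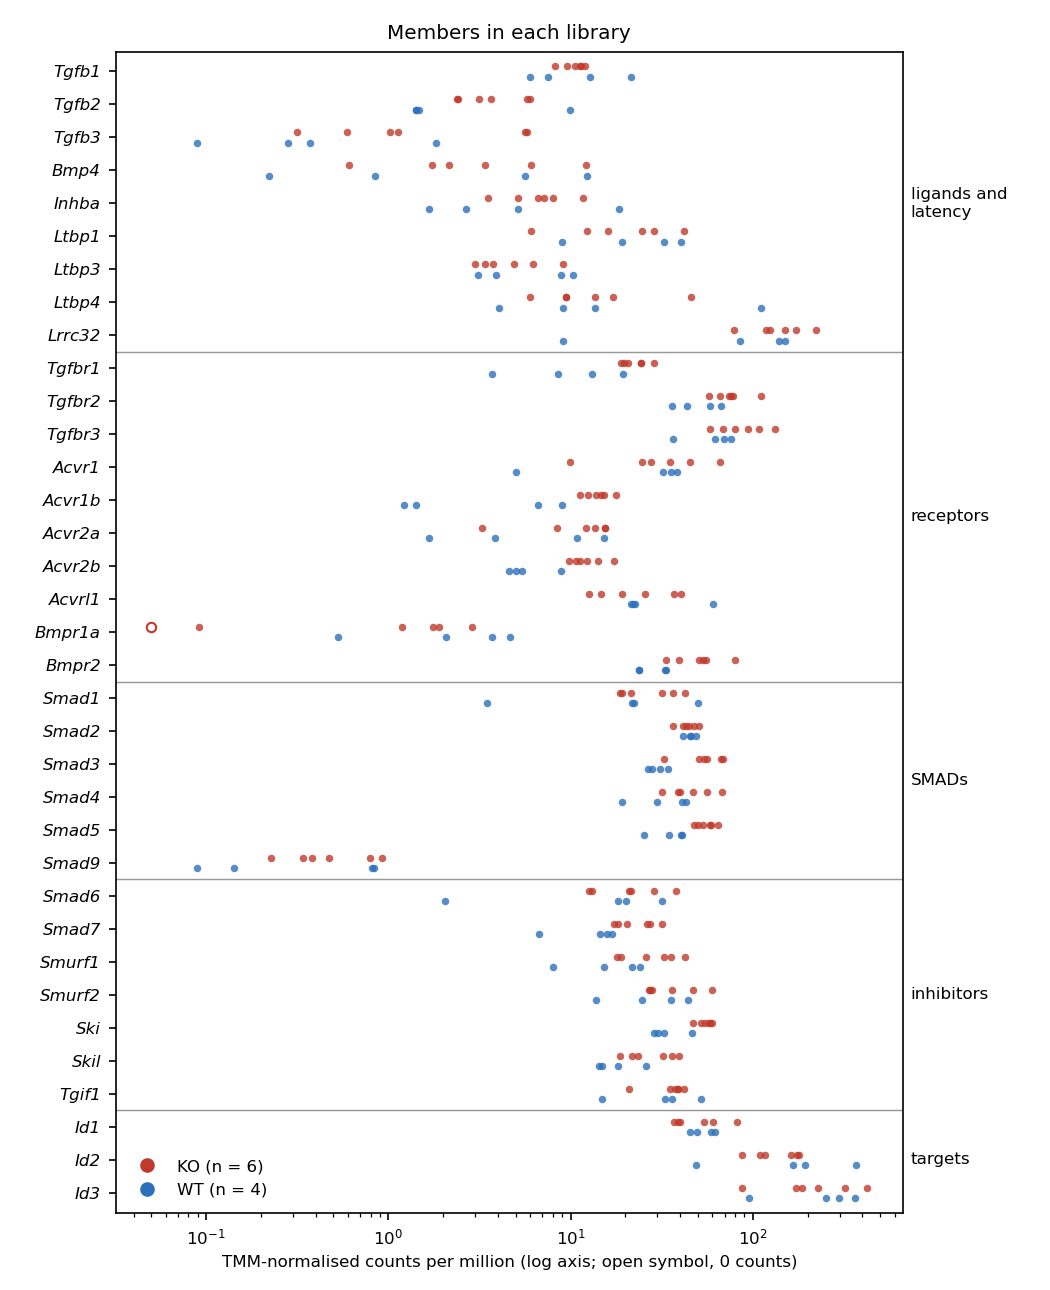
TMM-normalised CPM of each member (log axis) in every library, KO in red (n = 6) and WT in blue (n = 4), ordered by role, with an open symbol where a library had 0 counts. Smad3, Smad5, Ski, Acvr1b and Acvr2b sit to the right in KO, with the Smad3 value of KO 15409 (32.7) among the WT values, and single WT points far to the left for Lrrc32, Smad1 and Smad6 belong to WT 15416.

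**Figure D2:**
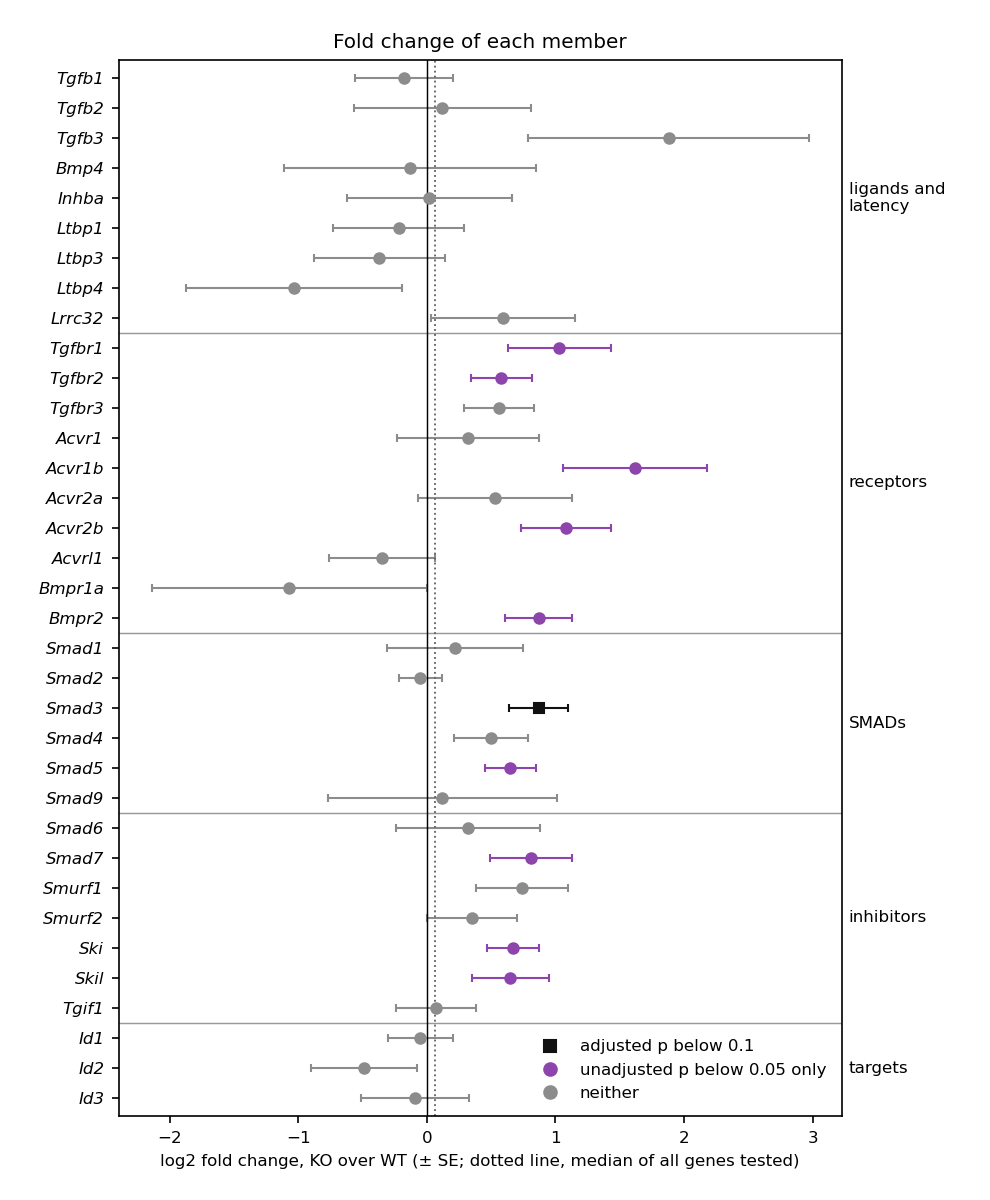
Log2 fold change of each member, KO over WT, with its standard error. The square marks Smad3, with an adjusted p of 0.0905 in edgeR, purple points mark 9 further members with an unadjusted p below 0.05, and the dotted line is the median of all genes tested, 0.06.

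Under the settings of the study, DESeq2 testing for log2 changes beyond 0.1, 6 members were called higher in KO, beside 3.5% of all genes, and 0 lower, beside 3.29%. These were Acvr1b, Acvr2b, Bmpr2, Smad3, Smad5 and Ski. DESeq2 without that minimum change also called Tgfbr1 and Smad7, 8 members in all, beside 5.97% of all genes, and again 0 lower, beside 6.85%. After edgeR's filterByExpr, a stricter filter on low counts, 4 members were called higher (Bmpr2, Smad3, Smad5 and Ski), beside 2.39% of 13665 genes, and 0 lower, beside 4.73%. The median log2 fold change of the members was 0.32 with DESeq2 and 0.33 after that filter, so the counts of calls differed while the median hardly moved.

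Among the SMADs, Smad3, which carries the signal of TGF-beta and activin receptors, rose in KO. Smad3 had 28.0, 26.5, 34.2 and 31.1 CPM in WT 15416, 15417, 15418 and 15420, and its lowest, median and highest KO values were 32.7, 55.2 and 69.0 CPM. In KO, 5 of 6 libraries lay above all WT libraries, and KO 15409 fell within the WT range. The log2 fold change was 0.87 ± 0.23 (SE, 1.83-fold, adjusted p = 0.0905 in edgeR). Without KO 15409 it was 0.99 (adjusted p = 0.0494), and without both KO 15409 and WT 15416 it was 0.95 (adjusted p = 0.0602). The call was lost when any other KO library or WT 15416, 15417 or 15420 was left out, at adjusted p-values of 0.102 to 0.212, with log2 fold changes of 0.80 to 0.93.

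Smad2, which the same receptors phosphorylate, had 48.9, 45.3, 41.6 and 45.9 CPM in the WT libraries in the same order, and a KO median of 43.8 CPM with a range of 36.5 to 50.5. The groups overlapped throughout, and the log2 fold change was -0.05 ± 0.17 (adjusted p = 0.912 in edgeR). Because both genes were read in the same libraries, their ratio does not depend on library scaling. The ratio of Smad3 to Smad2 in CPM was 1.27 ± 0.344 in KO (SD, n = 6) and 0.665 ± 0.114 in WT (SD, n = 4), with KO 15409 at 0.730 inside the WT range of 0.572 to 0.821. This ratio was chosen after the values had been seen and was not tested.

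Smad5, a SMAD of the BMP branch, had 25.4, 40.2, 40.8 and 34.5 CPM in WT and a KO median of 55.8 CPM, with a range of 47.3 to 64.4. All 6 KO libraries were above all WT libraries, and WT 15416 was the lowest of the 10. The log2 fold change was 0.65 ± 0.20 (adjusted p = 0.117 in edgeR), which did not pass. Smad4, the shared partner and the most abundant SMAD by TPM, had 19.3, 43.1, 40.9 and 29.7 CPM in WT and 31.6, 43.3 and 68.1 CPM as the lowest, median and highest KO values, and the groups overlapped (log2 fold change 0.50 ± 0.29, adjusted p = 0.376 in edgeR). Smad1, also of the BMP branch, lay at 3.49 CPM in WT 15416 and between 18.7 and 50.1 CPM in the other 9 libraries, so that its log2 fold change of 0.22 became -0.14 without that library. Smad9 stayed at or below 0.920 CPM in every library.

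**Figure D3:**
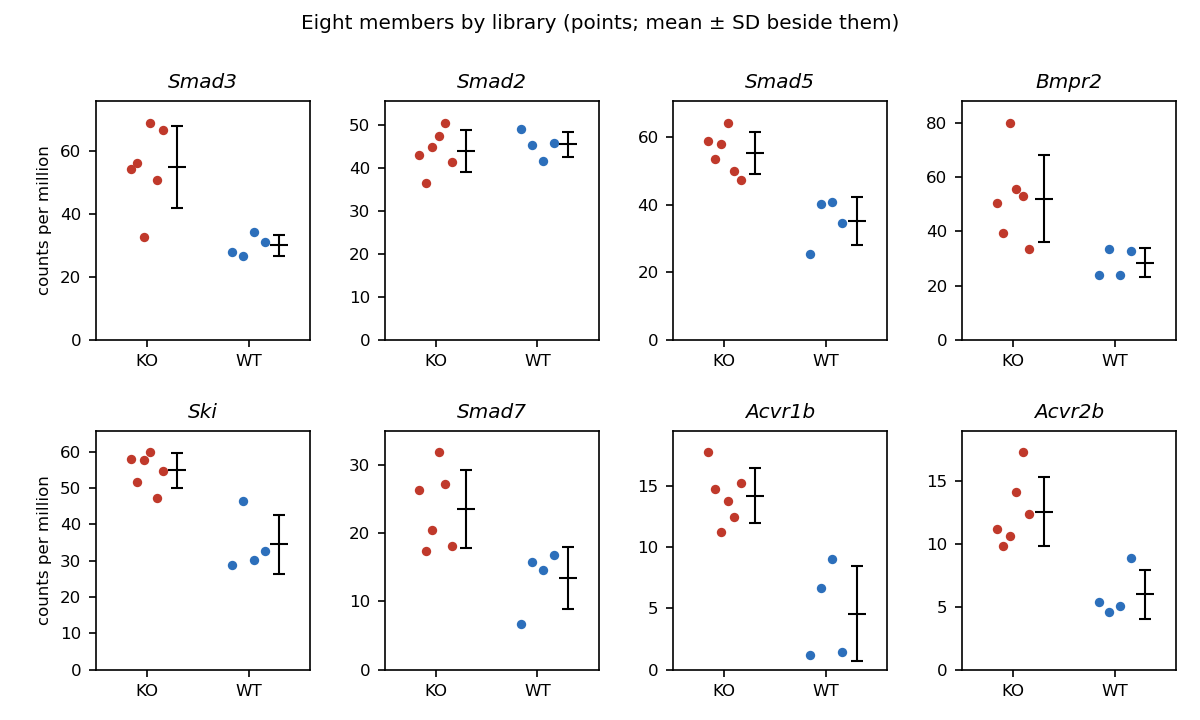
CPM of 8 members in each KO (red, n = 6) and WT library (blue, n = 4), with the mean ± SD beside the points and axes from 0. Smad2 overlaps between the groups, Smad3 overlaps through KO 15409 alone, and the closest gap is in Bmpr2, where the lowest KO value (33.46) and the highest WT value (33.45) nearly touch.

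Promoter sequence is shown for Smad3, the member called, and for Tgfbr1 and Tgfbr2, the receptor pair through which TGF-beta acts on SMAD3. Of the members, 26 had an entry in the RefSeq promoter table used, with 36 windows of the 250 bases before a RefSeq transcription start (GRCm38.p6). The windows printed, 5′ to 3′ on the gene's strand, are among the 14 that lie wholly outside the Gencode gene. They lie at chr9:63757995-63758244 for Smad3 (minus strand), chr4:47352972-47353221 for Tgfbr1 (plus strand, the upstream one of its 2 windows) and chr9:116175364-116175613 for Tgfbr2 (minus strand). Capitals mark the SMAD box CAGAC and the GC-rich SMAD element GGCGCC, both searched on both strands, and the palindromic SMAD element GTCTAGAC, which contains neither, was searched as well.
Smad3: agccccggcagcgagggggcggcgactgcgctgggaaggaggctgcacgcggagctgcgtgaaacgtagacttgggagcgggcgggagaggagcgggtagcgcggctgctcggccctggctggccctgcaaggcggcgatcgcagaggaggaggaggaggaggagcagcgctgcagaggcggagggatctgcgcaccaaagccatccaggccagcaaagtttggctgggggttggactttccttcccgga
Tgfbr1: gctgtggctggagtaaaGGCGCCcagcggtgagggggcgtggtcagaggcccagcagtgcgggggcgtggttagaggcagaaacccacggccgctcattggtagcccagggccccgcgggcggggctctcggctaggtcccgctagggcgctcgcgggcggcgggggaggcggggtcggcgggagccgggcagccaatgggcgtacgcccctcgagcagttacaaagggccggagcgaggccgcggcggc
Tgfbr2: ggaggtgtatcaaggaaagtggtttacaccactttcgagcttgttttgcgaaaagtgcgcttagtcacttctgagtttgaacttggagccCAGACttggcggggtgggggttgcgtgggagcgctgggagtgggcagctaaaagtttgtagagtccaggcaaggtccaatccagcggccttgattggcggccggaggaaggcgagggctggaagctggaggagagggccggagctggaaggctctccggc
The window of Tgfbr1 held 1 copy of GGCGCC, that of Tgfbr2 1 copy of CAGAC, and that of Smad3 none of the 3 motifs. Over all member promoters, 41.7% of 36 held CAGAC, against 42.2% of 32851 promoters of the same length, and GTCTAGAC was in 0 of the 36 and in 0.167% of all promoters. GGCGCC was in 27.8% of the 36 windows (9 of 26 genes), against 9.59% of all promoters. The member windows had a median GC content of 65.4%, against 52.4% over all promoters, and some of them overlap, so that 1 copy in Ltbp4 was counted in 2 windows. These are matches of letters, and the part of GC content in them was not tested.

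Among the receptors, 8 of 10 had a fold change above 0, those for TGF-beta and activin ligands and the BMP receptors Bmpr2 and Acvr1. Acvr1b, Acvr2b and Bmpr2 did not overlap with WT, but no receptor passed the adjusted threshold. Acvr1b, the activin type I receptor ALK4, had 1.21, 6.66, 9.02 and 1.42 CPM in WT and 11.3, 14.2 and 17.7 CPM as the lowest, median and highest KO values. All KO libraries were above all WT libraries, and the WT libraries fell into a low pair (15416 and 15420) and a higher pair. Its log2 fold change, 1.62 ± 0.56 (3.08-fold, adjusted p = 0.151 in edgeR), was the highest among the receptors. Acvr2b, an activin type II receptor, had 5.39, 4.61, 5.03 and 8.92 CPM in WT and a KO median of 11.8 CPM, with a range of 9.80 to 17.3, again without overlap (log2 fold change 1.08 ± 0.35, adjusted p = 0.136 in edgeR).

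Tgfbr1, the TGF-beta type I receptor ALK5, had 3.72, 19.4, 13.2 and 8.49 CPM in WT and 19.0, 22.5 and 28.9 CPM as the lowest, median and highest KO values. WT 15417 reached just into the KO range, and 5 of 6 KO libraries lay above all WT libraries (log2 fold change 1.03 ± 0.40, adjusted p = 0.193 in edgeR, and 0.73 without WT 15416). Tgfbr2, its type II partner, had 36.3, 67.3, 58.6 and 43.5 CPM in WT and a KO median of 74.8 CPM, with a range of 57.9 to 111. The upper WT values overlapped with the lower KO values (log2 fold change 0.58 ± 0.24, adjusted p = 0.212 in edgeR). Tgfbr3 had 61.8, 76.4, 36.7 and 69.8 CPM in WT and a KO median of 87.0 CPM, with a range of 58.3 to 133, and the groups overlapped (log2 fold change 0.56 ± 0.27, adjusted p = 0.291 in edgeR).

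Of the BMP receptors, Bmpr2, the type II receptor, had 23.7, 33.5, 23.8 and 32.8 CPM in WT and a KO median of 51.9 CPM, with a range of 33.46 to 80.2. The groups did not overlap, although KO 15415 (33.46 CPM) and WT 15417 (33.45 CPM) were almost equal, and KO 15409 was the highest. The log2 fold change was 0.87 ± 0.26 (adjusted p = 0.112 in edgeR). Acvr1 (ALK2), Acvr2a and Acvrl1 (ALK1, a receptor best known from endothelium) overlapped between the groups, with log2 fold changes of 0.32 ± 0.55, 0.53 ± 0.60 and -0.35 ± 0.41 and adjusted p-values of 0.802, 0.689 and 0.698 in edgeR. Reads on the ends of Acvr2a that overlap Orc4 on the opposite strand (446 bases, 7.84% of its exonic bases) cannot be assigned, as the libraries were not stranded. Bmpr1a, with 0 to 4.67 CPM, had a log2 fold change of -1.07 ± 1.07 (adjusted p = 0.638 in edgeR), too uncertain at this depth to give a direction.

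Of the inhibitors, all 7 had a fold change above 0 and none passed the adjusted threshold. Smad6 and Tgif1 turned below 0 without WT 15416, and Smurf2 with them without both WT 15416 and KO 15409. Ski, a corepressor that binds SMADs in the nucleus, had 28.7, 46.4, 30.2 and 32.7 CPM in WT and 47.2, 56.2 and 59.8 CPM as the lowest, median and highest KO values. All KO libraries were above all WT libraries, of which 15417 came closest (log2 fold change 0.67 ± 0.20, adjusted p = 0.109 in edgeR). Skil, which encodes the related SnoN, had 14.3, 25.9, 14.8 and 18.3 CPM in WT and a KO median of 28.0 CPM, with a range of 18.7 to 39.5, and the groups overlapped through WT 15417 (log2 fold change 0.65 ± 0.30, adjusted p = 0.261 in edgeR).

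Smad7, the inhibitory SMAD that TGF-beta itself induces, had 6.75, 15.8, 14.6 and 16.8 CPM in WT and a KO median of 23.5 CPM, with a range of 17.4 to 31.9. The groups did not overlap, with WT 15416 well below the rest (log2 fold change 0.81 ± 0.32, adjusted p = 0.199 in edgeR). Smad6, the inhibitory SMAD of the BMP branch, lay at 2.05 CPM in WT 15416 and at 12.7 to 38.1 CPM in the other 9 libraries (log2 fold change 0.32 ± 0.56, adjusted p = 0.808 in edgeR, and -0.06 without WT 15416). The ubiquitin ligases Smurf1 and Smurf2, which mark receptors and SMADs for degradation, had log2 fold changes of 0.74 ± 0.36 and 0.35 ± 0.35 (adjusted p = 0.289 and 0.635 in edgeR). Tgif1, the most abundant inhibitor by TPM, had 14.9, 35.9, 33.1 and 51.8 CPM in WT and 21.0, 38.1 and 41.9 CPM as the lowest, median and highest KO values, with WT libraries at both ends (log2 fold change 0.07 ± 0.31, adjusted p = 0.929 in edgeR).

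The target genes Id1, Id2 and Id3, which BMP signalling is known to induce, did not pass in either direction. Id3 had 95.4, 296.5, 253 and 363 CPM in WT and 86.8, 207 and 425 CPM as the lowest, median and highest KO values, a range that enclosed all WT libraries (log2 fold change -0.09 ± 0.42, adjusted p = 0.933 in edgeR). Id1 ranged from 37.1 to 81.6 CPM in KO and from 45.3 to 62.2 CPM in WT (log2 fold change -0.05 ± 0.25, adjusted p = 0.933 in edgeR). Id2 ranged from 86.9 to 179 CPM in KO and from 48.8 to 368 CPM in WT, with both the lowest and the highest value in WT (log2 fold change -0.49 ± 0.41, adjusted p = 0.567 in edgeR). Without WT 15416 it was -0.81 (unadjusted p = 0.0168 in edgeR, adjusted p = 0.230). With an offset for transcript length, Id1 and Id3 had log2 fold changes of 0.18 and 0.27, so that no direction can be given for them.

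With all libraries, none of the ligands and latency proteins had an unadjusted p below 0.05, and WT 15416 set several of their values. Lrrc32 had 9.10, 149.9, 139 and 85.3 CPM in WT and 79.3, 137.5 and 224 CPM as the lowest, median and highest KO values. WT 15416 lay far below all other libraries, and the other WT libraries fell within the KO range (log2 fold change 0.59 ± 0.56, adjusted p = 0.618 in edgeR, and 0.21 without WT 15416). Ltbp4, a protein that stores latent TGF-beta in the matrix, went the other way, with 111 CPM in WT 15416 and 4.07 to 46.1 CPM elsewhere (log2 fold change -1.03 ± 0.84, adjusted p = 0.554 in edgeR, and 0.92 without WT 15416).

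Tgfb1 had a lowest KO value of 8.22 and a median of 10.9 CPM, and all KO libraries lay inside the WT range of 5.99 to 21.4 CPM (log2 fold change -0.18 ± 0.38, adjusted p = 0.850 in edgeR). Tgfb2 was at 9.94 CPM in WT 15416 and at 1.42 to 1.48 CPM in the other WT libraries, with KO at 2.38 to 5.98 CPM between them. Tgfb3 had the highest log2 fold change of all members, 1.88 ± 1.09 (adjusted p = 0.376 in edgeR), at levels of 0.0887 to 5.79 CPM. Without WT 15416 the log2 fold changes of Tgfb2 and Tgfb3 were 1.43 and 3.25 (unadjusted p = 0.0366 and 0.0208 in edgeR, adjusted p = 0.291 and 0.243). The remaining ones, Bmp4, Inhba, Ltbp1 and Ltbp3, had log2 fold changes between -0.37 and 0.02 with SEs of 0.51 to 0.98, and their groups overlapped.

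Of 102 further pathway genes in a second list, 95 were tested, 2 were called higher in KO and 1 lower, beside the same 1.32% and 2.67% of all genes. None of them was called without KO 15405, 15406, 15411, 15412 or 15415 or without WT 15416, where 9 to 13 genes of the list were higher and 2 to 6 lower by the unadjusted p. Itgav, the integrin alpha-v chain that takes part in the release of TGF-beta from its latent complex, rose from 3.34, 4.44, 3.25 and 3.82 CPM in WT to a KO median of 10.1 CPM, with a range of 7.37 to 12.5 and no overlap (log2 fold change 1.43 ± 0.38, adjusted p = 0.0896 in edgeR). Sik1, a kinase known as a TGF-beta target that promotes receptor turnover, had 6.67, 14.9, 10.4 and 2.97 CPM in WT and 12.4, 43.3 and 72.7 CPM as the lowest, median and highest KO values, with KO 15409 within the WT range (log2 fold change 2.30 ± 0.59, adjusted p = 0.0846 in edgeR). No KO library lay near that median, with KO 15405, 15406 and 15409 at 12.4 to 31.8 CPM and KO 15411, 15412 and 15415 at 54.7 to 72.7 CPM. E2f4, a cell cycle repressor that works with SMAD3, fell from 217, 148, 273 and 133 CPM in WT to a KO median of 103 CPM, with a range of 80.7 to 112 and no overlap (log2 fold change -0.97 ± 0.22, adjusted p = 0.0824 in edgeR).

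The endothelial co-receptor Eng had 147, 844, 783 and 437 CPM in WT and 299, 728 and 1163 CPM as the lowest, median and highest KO values (log2 fold change 0.40 ± 0.49, adjusted p = 0.713 in edgeR). Bambi, a decoy receptor, had 7.89, 32.9, 24.6 and 15.1 CPM in WT and a KO median of 21.9 CPM, with a range of 16.5 to 47.2 (log2 fold change 0.48 ± 0.45, adjusted p = 0.611 in edgeR). For both genes the groups overlapped and WT 15416 was the lowest library. The median log2 fold change was 0.28 in the list and 0.06 over all genes, and by an unadjusted p below 0.05 it had 11 of 95 genes higher, beside 8.6% of all genes, and 4 lower, beside 10.2%. With DESeq2 at the settings of the study, 5 genes of this list were called higher and 1 lower, beside 3.5% and 3.29% of all genes. Mstn, Bmpr1b, Hfe2 and the older symbol Ctgf were not analysed here, and Bmp8b, Tdgf1 and Nog had too few counts to be tested.

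Marker genes of other cells moved with several members. WT 15416 was the lowest of the 10 libraries for 20 of 35 members, compared with 19.7% of all genes, and the highest for 5 members (Tgfb2, Bmp4, Ltbp3, Ltbp4 and Acvrl1), compared with 21.1% of all genes. This library had the lowest endothelial sum (1180 CPM), the highest summed stromal markers in WT (238 CPM, against 26.8 to 277 CPM in KO), and Lrrc32, Smad6, Smad1 and Acvr1 at levels that the other WT libraries exceeded 13.7-fold, 11.4-fold, 8.998-fold and 7.08-fold on average. KO 15415, with the lowest endothelial sum in KO (2316 CPM), also had the lowest KO values of Lrrc32, Smad6, Acvr1 and Id3. Of the 12 endothelial markers, 0 were called by edgeR or DESeq2 and 0 had an unadjusted p below 0.05. The part of endothelial transcripts in these members' levels was not tested beyond the following values. With the summed endothelial markers as a covariate, Smad3 had a log2 fold change of 0.90 (adjusted p = 0.0803) and was the one member called, Smad1 had 0.26 and Lrrc32 0.63.

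The LT-HSC markers had a higher sum in KO, where Smad3 was also called higher. Their sum was 1163 to 2193 CPM in KO and 654 to 1069 CPM in WT, without overlap, and 4 of 12 (Hlf, Mecom, Cd34 and Hoxa9) were called higher in KO. Not all markers rose. Ly6a (Sca1), on which the cells were gated, had a log2 fold change of -0.88 (adjusted p = 0.577 in edgeR), with 207 CPM in WT 15416. Slamf1 (CD150), also gated on, overlapped between the groups (log2 fold change 0.62, adjusted p = 0.576 in edgeR). KO 15409, the KO library with the lowest Smad3, had the lowest sum in KO, and KO 15411, with the highest Smad3, had the highest. Within WT the order differed. WT 15417 had the highest sum (1069 CPM) and the lowest Smad3 (26.5 CPM), and WT 15418, with the highest Smad3 in WT (34.2 CPM), had a sum of 726 CPM. Because the groups did not overlap in this sum, a larger share of LT-HSC transcripts in KO and a difference in Smad3 within LT-HSCs cannot be told apart.

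**Figure D4:**
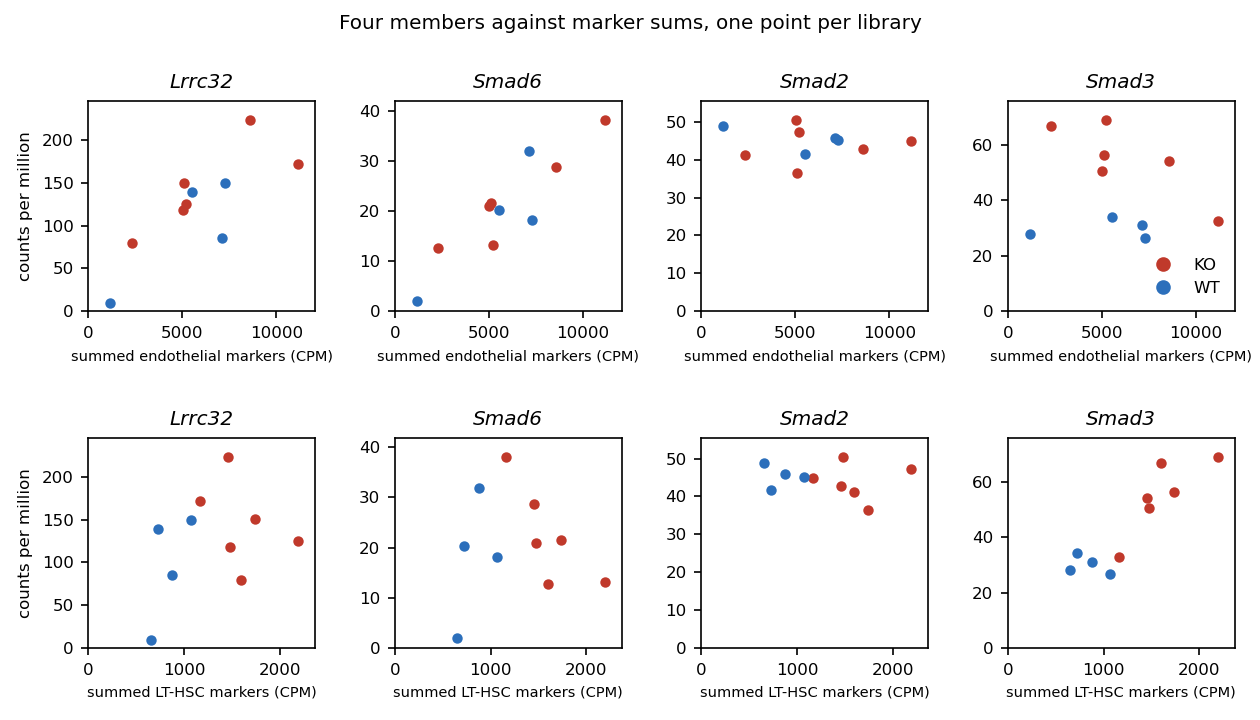
CPM of 4 members against the summed endothelial markers (top row) and the summed LT-HSC markers (bottom row), 1 point per library, KO in red (n = 6) and WT in blue (n = 4). Lrrc32 and Smad6 are lowest in WT 15416, the library with the lowest endothelial sum, Smad2 stays between 36.5 and 50.5 in all libraries, and the 5 highest Smad3 values are in the 5 KO libraries with the highest LT-HSC sums.

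Of the other marker lists, macrophage markers summed to 203 to 920 CPM in KO and 99.96 to 702 CPM in WT. Mrc1 and Vcam1, which endothelium also expresses, made up most of the sum in KO 15409 (714.5 and 155 CPM). The other 10 markers summed to 42.9 to 140.3 CPM in KO and 41.8 to 284 CPM in WT, all 10 with a log2 fold change below 0. Of these, Marco, a scavenger receptor of macrophages, was at 0 counts in all KO libraries and was called lower, and Clec4f was at 0 in every library except WT 15418 (3.85 CPM). Megakaryocyte markers, a cell type known to store TGF-beta1, summed to 252 to 3842 CPM in KO and 262 to 1315 CPM in WT, with 0 of 8 called by edgeR or DESeq2 and 1 higher at an unadjusted p below 0.05. Granulocyte markers ran from 12.6 to 1081 CPM in KO and from 6.07 to 2066 CPM in WT, with Ly6g at 0 in all libraries except KO 15412 and KO 15415, and hepatoblast markers from 89.9 to 8182 CPM and from 244 to 5499 CPM. Erythroblast markers ran from 2105 to 94830 CPM in KO and from 2196 to 239800 CPM in WT, highest in WT 15418, and Epor was called lower. Cd48, against which the cells were gated, did not exceed 13.3 CPM. The part of these transcripts in the members' differences was not tested.

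The transcript tables showed which transcript carried each member. For 27 of 35 members the transcript with the highest mean TPM was annotated as protein coding, and for 8 it was a retained intron or a processed transcript. Smad3 was carried by Smad3-201 (96.4% of its TPM in KO and 100% in WT) and Smad5 by Smad5-201 (98.7% and 93.4%). Ski, in contrast, was carried by Ski-203, annotated as a processed transcript, at 96.3% in KO and 94.6% in WT, and Acvr2b by the retained-intron form Acvr2b-203 at 52.9% and 41.8%. Tgfb1 was led by the retained-intron form Tgfb1-204 at 48.4% and 68.5%, with the protein-coding Tgfb1-201 at 18.5% and 23.6%. The values of these members are therefore counts on the gene and not on its coding transcripts alone. Tgfbr2 has 2 transcripts in the table, and the share of Tgfbr2-202 was 59.0% ± 11.2 in KO (SD, n = 6, range 46.0 to 74.0%) and 85.5% ± 10.8 in WT (SD, n = 4, range 74.5 to 100%). The groups did not overlap in this share, which was picked out after the values had been seen, was not tested and rests on the assignment of reads to transcripts by Kallisto.

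Without WT 15417 the members called were Tgfbr1 and Ski, without WT 15418 Acvr1b and Smad3, and without WT 15420 Acvr2b. Over 22 alternative analyses, the fold changes of the 10 members with an unadjusted p below 0.05 stayed above 0, and the calls varied. These 10 were picked by that p in the fit reported, where all were above 0. The alternatives reused the same libraries, so the shared direction is no separate support. Smad3 was past the threshold in 10 of the 22 alternatives, with a log2 fold change of 0.68 to 0.99. Ski was past it in 4, Bmpr2, Smad5, Acvr1b and Acvr2b in 3 each, Tgfbr1 in 2, Smad7 in 1, and Tgfbr2 and Skil in none. With a covariate for the level of Xist, which stands in for the sex of the embryo, Smad3 had a log2 fold change of 0.68 (adjusted p = 0.276) and no gene was called, although 905 genes were higher and 1546 lower by the unadjusted p.

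**Figure D5:**
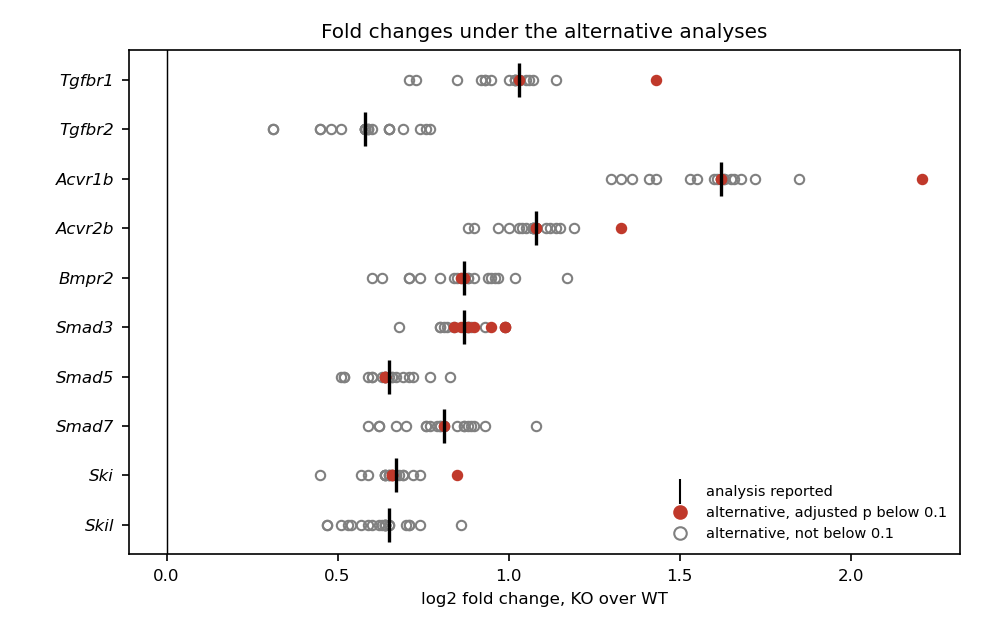
Log2 fold change, KO over WT, of the 10 members with an unadjusted p below 0.05 in the analysis reported (black bar) and in 22 alternatives (circles, filled where the adjusted p was below 0.1). All values lie above 0, the Smad3 values lie between 0.68 and 0.99, and filled circles are 10 of 22 for Smad3 and fewer for the others. The members were picked by that p in the analysis reported, and the alternatives reuse its libraries.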

How the data were processed

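RNA from sorted fetal liver LT-HSCs (6 KO and 4 WT libraries) was prepared by SmartSeq2, which does not keep strand, and was sequenced single-end. The authors demultiplexed the reads (bcl2fastq 2.20) and quantified transcripts with kallisto 0.44.0 against Gencode vM16 (GRCm38). Per library, the deposited tables hold estimated counts and TPM per transcript. A deposited gene table holds estimated counts, summed by gene symbol and rounded to whole numbers, with no scaling. This gene table lists 17404 genes, of which only 50 were at 0 throughout, and Mstn and Bmpr1b are absent from it. How its genes were selected is not known, so percentages of all genes refer to the genes tested from this list. Kallisto scaled TPM for length and depth. Sums of the transcript tables were within 1 count of 97.5% of the values of the gene table. Annotation was taken from Gencode vM21 on the same build.

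A minimum of 11 counts over all libraries left 16725 genes. They were fitted with glmQLFit of edgeR 4.0.16 under R 4.3.3, with TMM factors and robust dispersion, and tested with glmQLFTest, with genotype as the one term and Benjamini-Hochberg adjustment over all genes. SEs were derived from the F statistic. The test of the study, DESeq2 (1.42.0 here) against a minimum log2 change of 0.1, served as an alternative. Further alternatives changed the scaling, the filter on low counts, covariates, offsets for transcript length and GC content (loess span 0.3), depth and threshold, or left out a library. They comprised 20 planned fits and 2 added after the data had been seen, a covariate for endothelial markers and the omission of KO 15409 with WT 15416. The scripts were tested on simulated counts. The 35 members, the further pathway genes and the marker lists were chosen with earlier results of these data known, so p-values are adjusted over all genes and never over the members. Values in every library are given for members with an adjusted p below 0.1, an unadjusted p below 0.05 or no overlap between groups, and for the most abundant member of each role. From the further pathway genes, those with an adjusted p below 0.1 are named, with Eng and Bambi. The reads carry no molecular identifiers, so the limit given for 0 counts (3 counts) covers counting error only. The study gives KO embryos and littermate controls as the source of the libraries, and p-values measure the spread between libraries.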

Additional observations from a re-analysis of the deposited data

Results flagged for a closer look

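In 37 genes (the 35 members, Eng and Bambi), the highest and lowest library of each group were compared with the rest of the group by Dixon's criterion, which picks about 1 group in 20 by chance, and 6 values in 74 groups stood apart. Of these, 4 were in WT 15416. Its value was the highest of the 4 WT libraries for Tgfb2 (9.94 CPM), Tgfb3 (1.82 CPM), Ltbp4 (111 CPM) and Acvrl1 (60.9 CPM). The other 2 were in KO 15415, which had the highest KO value of Ltbp4 (46.1 CPM) and the lowest KO value of Tgif1 (21.0 CPM). These 2 libraries had the lowest endothelial marker sums of their groups, and the part of that in the values was not tested.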

How the results depend on the processing

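The study gives the controls as littermates, but the litter of each embryo is not in the labels, so no analysis by litter was possible. Of the 35 members, 19 kept their direction in all 22 alternatives (16 higher and 3 lower in KO), 0 were called lower in edgeR or DESeq2, and 16 had a reversal. The 3 lower were Ltbp3, Bmpr1a and Smad2, with log2 fold changes of -0.37 ± 0.51, -1.07 ± 1.07 and -0.05 ± 0.17 (SE). Those values are too uncertain to give a direction. Over all genes, 221 higher and 446 lower in KO became 585 and 551 in DESeq2 with the threshold of 0.1, 998 and 1145 in DESeq2 without it, 0 and 0 with the Xist covariate, with the genes-detected covariate, with the offset for transcript length and at an adjusted p below 0.05, and 262 and 292 without both KO 15409 and WT 15416. By an unadjusted p below 0.05, the 4 settings with 0 calls had 905 to 1438 genes higher and 1208 to 1701 lower. Leaving out 1 library gave 0 to 405 higher and 0 to 598 lower, the highest of both without KO 15409. It gave at most 1 call without KO 15405, 15406, 15411, 15412 or 15415 or without WT 15416, where 1071 to 1303 genes were higher and 1316 to 1663 lower by the unadjusted p.

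The members called higher (1) became 6 in DESeq2 with the threshold and 8 without it, 4 with filterByExpr, and 0 with the Xist covariate, the covariate for genes detected, the length offset, counts thinned to the smallest library and the stricter adjusted p. At an unadjusted p below 0.05 these had 9, 5, 8, 10 and 10 members higher and 0, 2, 0, 0 and 0 lower. With the endothelial covariate 11 members were higher and 1 lower at that p, and without both KO 15409 and WT 15416 there were 7 and 1. Leaving out 1 library gave 0 to 2 members higher, with 2 where WT 15417 or WT 15418 was left out. The further pathway genes called higher (2) became 5 and 8 in DESeq2 and 0 with either covariate, the length offset and the stricter adjusted p, and those called lower (1) became 3 in DESeq2 without the threshold and 0 in the same 4 settings, which had 7 to 12 genes higher and 3 to 9 lower by the unadjusted p. Leaving out 1 library gave 0 to 3 higher and 0 to 1 lower.

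Reversed log2 fold changes were as follows. Without both KO 15409 and WT 15416, Acvr1 had -0.31, Acvrl1 0.03, Bmp4 1.02, Inhba -0.17, Ltbp1 0.12, Ltbp4 0.98, Smad1 -0.29, Smad6 -0.27, Smurf2 -0.07 and Tgif1 -0.23. The Xist covariate gave Id1 0.23, Id3 0.23, Inhba -0.13 and Smad9 -0.12. The covariate for genes detected, which did not overlap between KO and WT, gave Id1 0.20, Id2 0.49, Id3 1.01, Tgfb1 0.41, Tgfb2 -0.51 and Smad9 -0.25. The length offset gave Id1 0.18, Id3 0.27, Bmp4 0.07, Inhba -0.12 and Smad9 -0.14. Thinned counts gave Bmp4 0.20, Inhba -0.18, Smad9 -0.28 and Tgfb2 -0.33. The endothelial covariate gave Bmp4 0.36, Ltbp4 0.17 and Tgif1 -0.03. Leaving out 1 library gave Tgfb1 -0.40 to 0.26, Tgfb2 -0.14 to 1.43, Bmp4 -0.76 to 0.97, Inhba -0.30 to 1.16, Ltbp1 -0.52 to 0.10, Ltbp4 -1.64 to 0.92, Acvr1 -0.03 to 0.52, Acvrl1 -0.54 to 0.18, Smad1 -0.14 to 0.84, Smad9 -0.22 to 0.57, Smad6 -0.06 to 0.74, Tgif1 -0.18 to 0.35, Id1 -0.23 to 0.05, Id2 -0.81 to 0.02 and Id3 -0.36 to 0.14. The cause of these reversals was not tested. The level of Acvr1b (0.802 TPM), Acvr2b (4.32 TPM) and Smad3 (4.68 TPM) in WT alone lay more than 1 SD from the mean of all libraries.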
